A study of Drosophila melanogaster with 4 samples.

Results

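The genes described here are the ligands, receptor, kinase, transcription factor and inhibitors of the Drosophila JAK/STAT pathway, together with chinmo: upd1, upd2, upd3, dome, hop, Stat92E, Socs36E, Ptp61F and chinmo. They are 9 of the 15222 gene features counted in each library and were taken by gene symbol rather than by level. The list was drawn up with earlier results of these data known. Wing imaginal discs, the larval epithelia that form the adult wing and notum, had been dissected by hand from wandering third-instar larvae of Drosophila melanogaster. The wild-type group (strain yw, labelled WT) held 2 libraries of total RNA. The second group, also labelled strain yw, carried the warts allele wtsP2 and held 2 libraries. Warts is the kinase of the Hippo pathway that restrains the growth coactivator Yorkie. The labels give no other allele and do not describe the nature of the P2 allele, and whether replicate libraries stem from separate cultures is unstated. P-values therefore measure the spread between these libraries, which may be technical.

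In flies, the secreted Unpaired cytokines (Upd1, Upd2 and Upd3) bind the receptor Domeless, which activates the Janus kinase Hopscotch (hop). Hopscotch phosphorylates Stat92E, which then enters the nucleus and switches on target genes, among them the inhibitor Socs36E. In the wing disc the pathway is known for its work in the hinge, and in overgrown or wounded discs for the growth and repair that the Upd ligands bring about. Chinmo is a BTB zinc finger transcription factor that acts downstream of STAT in several fly tissues and maintains a juvenile state in others.

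Library totals were 2112468 and 696952 counts in the wild-type group, with wtsP2 at 3520970 and 3846682, and 3 counts stood for 1.42 and 4.30 CPM (the counts scaled to the library total) in wild type and for 0.852 and 0.780 CPM in wtsP2. The libraries of wild type were far less alike than those of wtsP2: over 7278 tested genes the median absolute log2 difference between replicates was 1.39 in wild type and 0.49 in wtsP2. Of 9 markers of the wing disc epithelium, 9 were counted in both wtsP2 libraries and in the first wild-type library, and 8 in the second, where Dll was at 0; the summed level of the list was 1795 and 2337 CPM in the wild-type libraries, with wtsP2 at 2485 and 2173 CPM. The wts gene itself was counted 46 and 0 times in the wild-type libraries, and 48 and 24 times in those of wtsP2, too rarely to check the genotype labels. Larval fat body markers, 6 of 6 counted in all libraries, summed to 18077 and 18742 CPM in the wild-type libraries, with wtsP2 at 845 and 1155 CPM. Haemocyte markers summed to 815 and 894 CPM in the wild-type libraries, with 3 of 9 at 0 in the second. The wtsP2 libraries were at 204 and 276 CPM, with He at 0 in both, as in the second wild-type library. The 7 tested haemocyte markers all had negative log2 fold changes. Before scaling to the totals, PPO1 was counted 475, 75, 23 and 22 times and Hml 179, 150, 290 and 537 times. Tracheal markers, 5 of 5 counted in all libraries, summed to 627 and 986 CPM in the wild-type libraries against 2123 and 1734 CPM, a sum made up mainly of verm, serp and pio. The tracheal receptor gene btl was counted 27, 96, 46 and 67 times and had a negative log2 fold change, as 1 of the 5. Salivary gland markers summed to 357 and 296 CPM in wild type against 5.11 and 1.30 CPM, with 3 and 5 of 6 at 0 in the wtsP2 libraries. Eye disc markers summed to 99.4 and 263 CPM against 62.8 and 42.4 CPM, with ey at 0 in 1 library of each group and toy, at 0 in both wild-type libraries, counted 23 and 21 times in wtsP2. Myoblast markers summed to 170 and 484 CPM against 166 and 152 CPM, with twi at 0 in both wild-type libraries. JAK/STAT signalling also operates in fat body and blood cells, and the part of these cells in the values below was not tested. In these whole discs, fewer cells of a type and less RNA per cell cannot be told apart.

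The counts of upd2 and upd3 were too low in too many libraries for a test, and the other 7 genes were tested. None of the 7 passed an adjusted p of 0.05 in edgeR's quasi-likelihood test, as none of the 7278 tested genes did (0%). At an unadjusted p under 0.05, 2 of the 7 were higher in wtsP2, chinmo and upd1, and 0 were lower, where 9.91% of all tested genes were higher and 2.65% lower. Both depended on the fit: chinmo stayed under 0.05 in 13 of 15 alternatives and upd1 in 7 of the 14 that tested it, with an unadjusted p of 0.102 without a filter, 0.132 in DESeq2 and 0.267 with the replicate block. With no count in wild type, upd1 passed the filter through the wtsP2 libraries alone, so its direction was set in advance. Other genes of this kind are part of the 9.91% as well. The lower wtsP2 library exceeded the higher wild-type library in CPM for 3 of the 9 genes (upd1, hop and chinmo), all of them tested. The same held for 30.3% of all tested genes. The 6 tested genes with counts in both groups had a median log2 fold change of 0.66, beside 0.24 for all tested genes. The latter include 445 genes with no wild-type count. The 0.66 lies between Ptp61F at 0.37 and dome at 0.96, and dome was at 2.75 or 0.18 by the wild-type library kept. With 2 libraries against 2, the smallest p that an exact two-sided permutation test of a single value can give is 0.333.

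**Figure D1:**
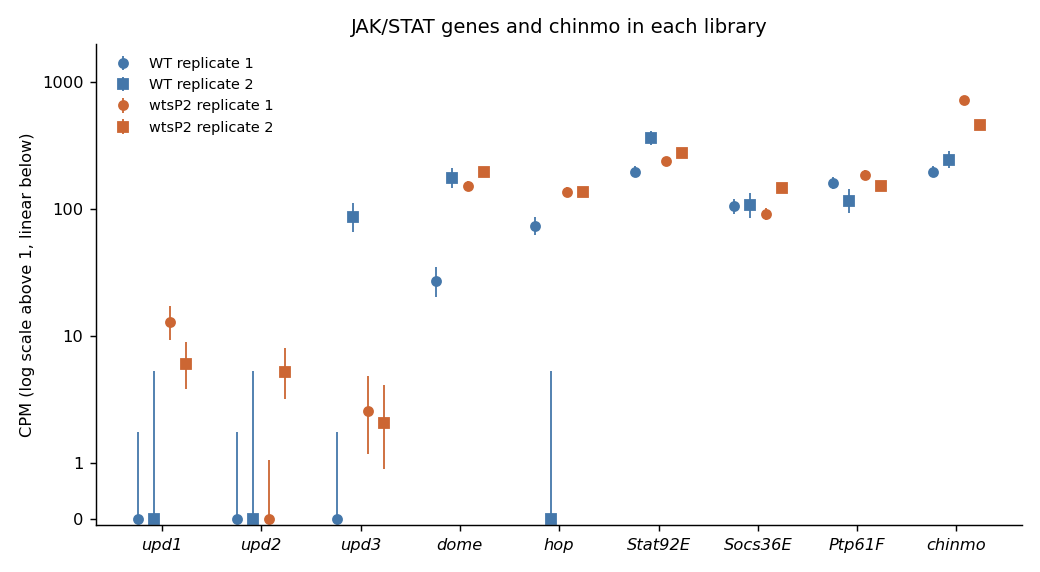
Level of each gene in each library in CPM, on an axis that is logarithmic above 1 and linear below; bars are exact 95% Poisson intervals, which cover counting error only. The wtsP2 points lie above the wild-type points for upd1, hop and chinmo, and the groups overlap for the other 6 genes.

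The 3 ligand genes lie side by side on the X chromosome within 68232 bases, in the order upd2, upd3 and upd1, with 1 other feature between them, CG15059, which had no counts in any library. In wtsP2 they were the lowest of the set. The upd1 gene (FBgn0004956; chromosome X, 18199377 to 18203021, minus strand, build BDGP5, as are all coordinates here), which encodes the founding ligand, had 0 counts in both wild-type libraries and 45 and 23 counts in the wtsP2 libraries. In CPM these came to 12.8 and 5.98. The 0 counts in wild type allow up to 1.75 and 5.29 CPM (upper 95% limits). The 95% interval of the first wtsP2 library, from 9.32 CPM, lay above both limits. That of the second, 3.79 to 8.97 CPM, overlapped the interval of the second wild-type library. Pooled over the group, upd1 was at 9.23 CPM in wtsP2, 8.6 times a floor of 3 counts over the wild-type group. The limits and this floor cover counting error only. At the pooled wtsP2 level the wild-type libraries would have held 19.5 and 6.43 counts. Of genes predicted from the other libraries at 20 to 40 counts, 28.7% and 37.2% had none in the wild-type libraries. The wtsP2 shares were 28.2% and 21.9%. The test gave an unadjusted p of 0.0214 and an adjusted p of 0.368 (edgeR). In all, 445 tested genes had no count in either wild-type library, upd1 among them. These passed the filter through the wtsP2 libraries alone.

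The upd2 gene (FBgn0030904; chromosome X, 18134790 to 18137317, minus strand), whose product is secreted from fat body as well as acting locally, had 20 counts in the second wtsP2 library and 0 in the other 3. Its level there was 5.20 CPM, while 0 counts allow up to 1.05 CPM in the first wtsP2 library. The wtsP2 libraries thus differed from each other beyond counting error, and the groups overlapped. The upd3 gene (FBgn0053542; chromosome X, 18171266 to 18178632, plus strand), the ligand best known from blood cells, gut and wounded discs, was counted 0 and 60 times in the wild-type libraries and 9 and 8 times in those of wtsP2. In CPM the wild-type libraries stood at 0 and 86.1 and the wtsP2 libraries at 2.56 and 2.08. The single high library was thus a wild-type one, and wtsP2 lay between the wild-type values.

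Where reads fell within a gene can be read only in part from the deposited number of exons with over 10 reads. That number also depends on the count. For upd3 in the second wild-type library, with 60 counts, 1 of 4 exons had over 10 reads. In wtsP2 its 9 and 8 counts were too few for any exon to pass. For upd1, 2 of 6 exons passed 10 reads in each wtsP2 library, at 45 and 23 counts. For upd2 it was 1 of 4 in the library that held its 20 counts. At 23 and 20 counts hardly more exons could pass. Narrow coverage of genes with more counts was more frequent in wild type. Of genes with at least 50 counts and at least 3 exons, 12.0% and 23.1% had at most 1 exon over 10 reads in the wild-type libraries. The wtsP2 libraries were at 6.32% and 5.83%. These shares fell as the library total rose, and the part of depth in them was not tested.

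The receptor gene dome (FBgn0043903; chromosome X, 19570090 to 19577549, minus strand) had 57 and 123 counts in the wild-type libraries, while wtsP2 had 538 and 752. On the CPM scale the wild-type libraries stood at 27.0 and 176, with wtsP2 at 153 and 195. The first wild-type library stood alone at the low end and the second lay among the wtsP2 libraries, so the groups overlapped, and the wild-type libraries differed 6.5-fold from each other. The difference, as log2 fold change, was 0.96 with a standard error (SE) of 0.87 over 2 libraries a group (edgeR adjusted p = 0.877), and later errors of log2 fold changes are SE as well. Against the first wild-type library alone it was 2.75 ± 0.52, against the second alone 0.18 ± 0.41, and in limma-voom 2.32 (adjusted p = 0.170). With a single wild-type library left, its spread is assumed to be that of the wtsP2 pair. All 3 exons of dome had over 10 reads in both wtsP2 libraries, against 2 and 1 in wild type.

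The kinase gene hop (FBgn0004864; chromosome X, 11254932 to 11262130, minus strand) was counted 156 and 0 times in wild type, and in wtsP2 479 and 528 times. The wild-type libraries stood at 73.8 and 0 CPM, with wtsP2 at 136 and 137 CPM. The wtsP2 libraries were nearly equal and both above wild type, while the second wild-type library had no read where the first predicts 51.5. The other 3 libraries together predict 85.5. Of 1017 genes predicted in this way to have 80 to 160 counts, 4.72% had none in the second wild-type library. The share was 2.82% in the first and 2.05% and 1.72% in the wtsP2 libraries. At 40 to 80 predicted counts, a range that holds 51.5, it was 19.1% in the second wild-type library. In that range the first had 11.9% and the wtsP2 libraries 7.79% and 7.08%. The log2 fold change of hop was 1.87 ± 1.72 (edgeR adjusted p = 0.878), and 0.94 ± 0.47 against the first wild-type library alone (adjusted p = 0.166). It was 5.67 in limma-voom (adjusted p = 0.157) and 3.62 in edgeR with the replicate number as a block (adjusted p = 0.275). Its 3′ end overlaps Pa1, on the opposite strand, by 31 bases. The strand setting of the counting is not given in the sources used here, so reads in that overlap cannot be assigned, and Pa1 had 33, 0, 196 and 236 counts. The number of hop exons over 10 reads was 3 and 0 of 10 in the wild-type libraries, with wtsP2 at 5 and 8.

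The transcription factor gene Stat92E (FBgn0016917; chromosome 3R, 16361405 to 16378034, minus strand) had 417 and 252 counts in the wild-type libraries, while wtsP2 had 846 and 1057. Its wild-type levels were 197 and 362 CPM, with wtsP2 at 240 and 275 CPM. Both wtsP2 libraries lay between the wild-type libraries. The log2 fold change was 0.01 ± 0.42 (edgeR adjusted p = 0.999), and its sign turned with the scaling and with the library left out. The wild-type libraries differed 1.8-fold from each other, so a small difference between the groups could be missed. Even the 2.9-fold difference of chinmo did not pass the threshold.

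Of the inhibitors, Socs36E (FBgn0041184; chromosome 2L, 18138668 to 18152410, minus strand), the feedback inhibitor used as a readout of the pathway, was counted 222 and 75 times in wild type, and in wtsP2 323 and 562 times. The wild-type libraries stood at 105.1 and 107.6 CPM and lay between the wtsP2 libraries at 91.7 and 146 CPM. The log2 fold change was 0.27 ± 0.53 (edgeR adjusted p = 0.976), close to the median of all tested genes, and -0.15 without the second wtsP2 library. In the second wild-type library only 1 of its 6 exons had over 10 reads, against 5 in the first and 6 in both wtsP2 libraries.

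Ptp61F, the phosphatase that removes phosphate from Stat92E and Hopscotch, is listed in the files under an older identifier (FBgn0003138; chromosome 3L, 1342490 to 1424979, minus strand), which was matched to the gene by its transcripts. Its counts were 338 and 81 in the wild-type libraries, with wtsP2 at 657 and 580, or 160 and 116 CPM against 187 and 151 CPM. The groups overlapped, with a log2 fold change of 0.37 ± 0.45 (edgeR adjusted p = 0.940). Without the first or the second wild-type library it was 0.73 and 0.13. Its span covers 15 other features, of which 13 had no count in any library, and CG9166 had 28, 5, 86 and 34 counts.

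Of the 7 tested genes, chinmo had the smallest p (FBgn0086758; chromosome 2L, 1651260 to 1702832, plus strand). Its counts were 417 and 171 in the wild-type libraries, and those of wtsP2 held 2567 and 1767. The wild-type levels were 197 and 245 CPM (221 ± 33.9, SD, n = 2) and those of wtsP2 729 and 459 CPM (594 ± 191). The lower wtsP2 library was well above the higher wild-type library, and the replicates differed 1.2-fold in wild type and 1.6-fold in wtsP2. The log2 fold change was 1.52 ± 0.38, a 2.9-fold difference, at an unadjusted p of 0.00972 and an adjusted p of 0.368 in edgeR. Of the 7278 p-values, 125 were smaller. The adjusted p was 0.112 in DESeq2 and 0.155 in limma-voom, at log2 fold changes of 1.45 and 1.52. None of the members with an adjusted p passed in either, where 2.47% and 2.06% of all genes with one did. These were 8 members in DESeq2 (all but upd2) and 7 in limma-voom. Leaving out the first or the second wild-type library brought it under the threshold (adjusted p = 0.0119 and 0.00596, log2 fold changes 1.46 and 1.64), in fits that called 40.0% and 17.9% of all tested genes. Without the first or the second wtsP2 library the log2 fold change was 1.24 and 1.79, and neither passed.

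More exons of chinmo also had over 10 reads in wtsP2. Of its 14 exons, 6 and 5 had over 10 reads in the wild-type libraries, and in wtsP2 9 and 11. This goes with the higher counts and the larger wtsP2 library totals, and the part of depth was not tested. Stat92E, at a log2 fold change of 0.01, rose as well, from 5 and 4 of 11 exons in wild type to 9 and 9. No other feature of the files overlaps chinmo.

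**Figure D2:**
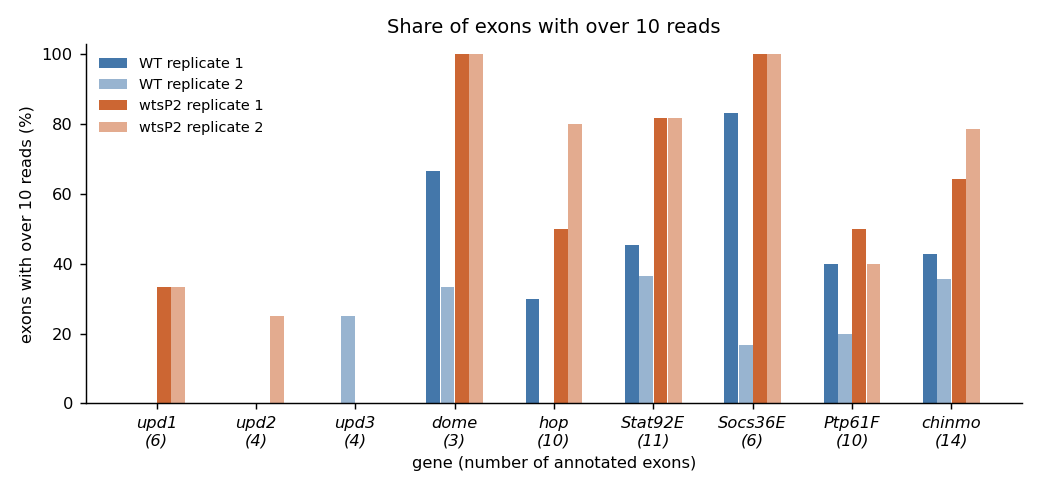
Share of each gene's annotated exons with over 10 reads, in percent, as deposited for each library; the number of exons is under each name. The bars of both wtsP2 libraries reach 100% for dome and Socs36E. The second wild-type library is the lowest of the 4 for dome, hop, Stat92E, Socs36E, Ptp61F and chinmo. That library also had the smallest total, 696952 counts.

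**Figure D3:**
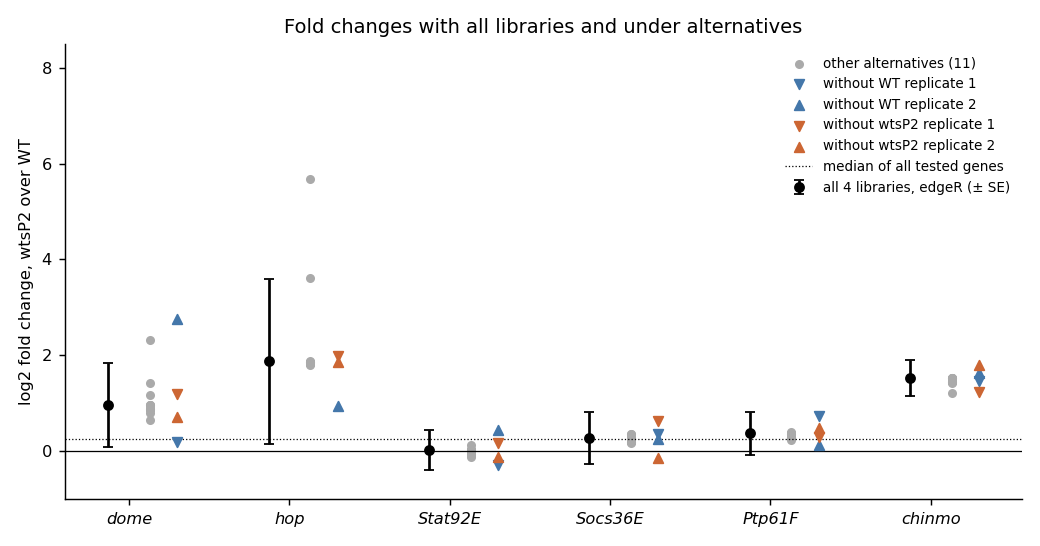
Log2 fold change of the 6 tested genes with counts in both groups: black points with all 4 libraries (± SE), triangles with 1 library left out, grey points under the other alternatives; hop without the first wild-type library is not drawn, since no wild-type count is then left. All points of chinmo lie between 1.21 and 1.79, while those of dome run from 0.18 to 2.75.

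Levels can be set against each other between genes only per length, for which the authors' deposited RPKM was used. In wild type Stat92E was the highest at 66.1 ± 27.4 RPKM (SD, n = 2), followed by Ptp61F at 43.4 ± 9.77 and Socs36E at 30.8 ± 0.495. Next came dome at 21.2 ± 22.0, chinmo at 20.9 ± 3.18, upd3 at 19.6 ± 27.8 and hop at 7.38 ± 10.4 RPKM, and upd1 and upd2 were at 0. In this order the replicate values of each gene overlapped those of the next, except between Ptp61F and Socs36E. In wtsP2 the order was Stat92E at 60.9 ± 5.92, chinmo at 56.0 ± 17.8, Ptp61F at 53.0 ± 7.84, dome at 36.2 ± 6.36, Socs36E at 34.5 ± 11.2 and hop at 27.3 ± 0.233 RPKM. The ligand genes followed at 3.97 ± 2.02 for upd1, 1.41 ± 1.99 for upd2 and 1.06 ± 0.156 RPKM for upd3. Here neighbours overlapped as well, except Ptp61F with dome and hop with upd1. Both wild-type values of chinmo lay below both of Ptp61F, while in wtsP2 the values of these genes overlapped.

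The authors' own table gives group means from another counting of reads, in which each mean splits into whole reads of 2 libraries that carry no replicate number. In that counting upd1 again had 0 reads in both wild-type libraries, and 42 and 47 in wtsP2. The hop reads were 158 and 2 in the wild-type libraries against 545 and 525, and the upd3 reads 0 and 62 against 16 and 13. For chinmo the wild-type libraries moved apart, to 214 and 282 reads, or 103.6 and 377 CPM, a 3.6-fold difference, against 1648 and 2212 reads (517 and 742 CPM) in wtsP2. The groups still did not overlap, and the log2 fold change was 1.21 ± 0.62 (edgeR adjusted p = 0.569). The fold in the authors' deposited table was 2.20 for chinmo, 3.43 for hop, 1.49 for dome, 0.966 for Stat92E, 1.21 for Socs36E, 1.21 for Ptp61F and 0.0972 for upd3.

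**Figure D4:**
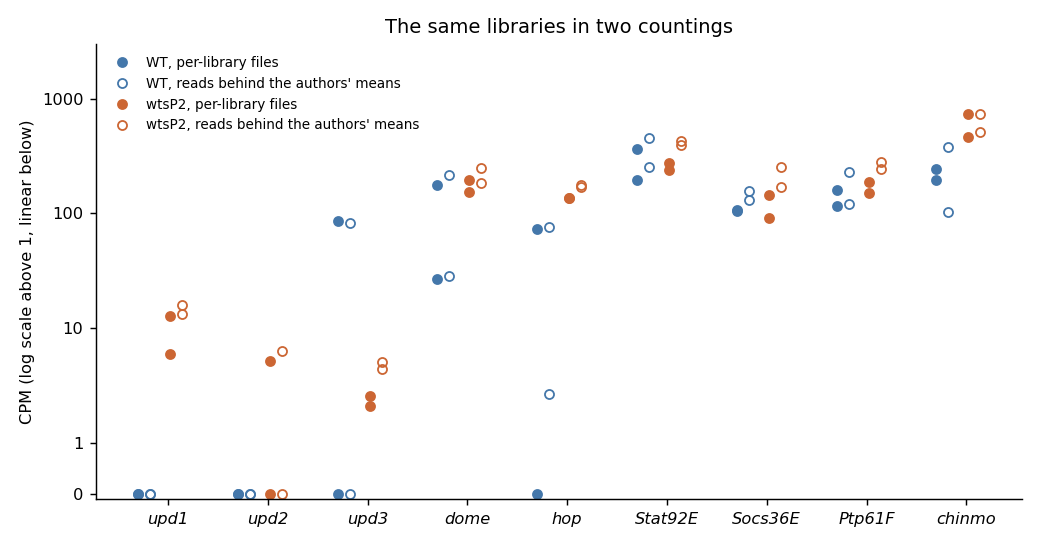
Level of each gene in CPM (logarithmic axis above 1, linear below) from the per-library files (filled) and from the reads behind the authors' group means (open), with 2 points per group. The wild-type points of chinmo are close together in the files and spread from 103.6 to 377 CPM in the other counting, and upd1 is at 0 in wild type in both.

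The 5 genes upd1, upd2, upd3, dome and hop are on the X chromosome. The median log2 fold change of the 1230 tested X-linked genes was 0.39, against 0.19 to 0.26 on the large autosome arms. The sex of the larvae is not given in the labels. The only sex-related gene of the lists that was analysed here, msl-2, a subunit gene of the complex that raises X expression in males, stood at 35.5 and 136 CPM in the wild-type libraries, with wtsP2 at 96.0 and 61.1 CPM.

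Of 12 other genes of the pathway, 11 were tested and 0 passed; 7 had positive and 4 negative log2 fold changes, with a median of 0.28 beside 0.24 for all tested genes. The PIAS gene Su(var)2-10, an inhibitor of STAT, was counted 66 and 41 times in wild type, and in wtsP2 508 and 564 times. The log2 fold change was 1.82 ± 0.60 (edgeR adjusted p = 0.368), and the groups did not overlap. The other SOCS genes gave -0.88 ± 1.01 for Socs44A and 1.71 ± 2.18 for Socs16D. The short receptor gene et, which encodes an antagonist of Domeless signalling, had 13 counts in the second wtsP2 library and 0 elsewhere. The log2 fold change was 2.38 ± 2.41 for apt, which limits STAT activity in border cells. The most abundant gene of the list, the nucleosome remodelling factor gene E(bx), was at 0.11 ± 0.32, and the gene of the heterochromatin protein HP1a at -0.80 ± 0.60.

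Among 14 genes known as STAT targets in some fly tissue, 8 were tested, 0 passed, 5 were positive and 3 negative, and the median was 0.43. The virus-induced gene vir-1 was counted 728 and 477 times in wild type, and in wtsP2 340 and 545 times, with a log2 fold change of -1.97 ± 0.48 (edgeR adjusted p = 0.368). Of the 6 Turandot genes, humoral stress targets, 4 had no count in any library. TotA had 171 counts in the first wild-type library only and TotB 10 in the first wtsP2 library only. For the hinge transcription factor gene zfh2 the log2 fold change was 0.59 ± 0.35, for Mo25 it was -0.57 ± 0.49, and for Diap1, which blocks caspases, 0.27 ± 0.34.

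Of the genes that work with chinmo in the timing of larval and adult states, 3 were tested and 0 passed. The partner of chinmo in this switch br, the pupal determinant, was counted 2197 and 1190 times in wild type, and in wtsP2 5735 and 5444 times, with a log2 fold change of 0.27 ± 0.36. The RNA-binding protein genes Imp and Syp, which act on chinmo in neuroblasts, were at 0.86 ± 0.51 and 0.36 ± 0.41. The adult specifier Eip93F had 2, 7, 2 and 3 counts, and the microRNA genes mir-let7, mir-125 and mir-100 had none.

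The Yorkie list held 14 tested genes with a median of 0.38, of which 0 passed, 9 were positive and 5 negative. At an unadjusted p under 0.05, 3 of them were higher in wtsP2 and 1 was lower. The growth regulator gene ex was counted 666 and 191 times in wild type, and in wtsP2 6301 and 5900 times, with a log2 fold change of 2.58 ± 0.36 (edgeR adjusted p = 0.340). The signalling genes wg (115, 47, 737 and 726 counts) and dally (464, 121, 1898 and 1784 counts) were at 1.81 ± 0.45 and 1.43 ± 0.38 (edgeR adjusted p = 0.368 for both). The lower one was Tgi, whose product competes with Yorkie for its DNA-binding partner Scalloped. It was counted 652 and 200 times in wild type, and in wtsP2 392 and 218 times, or 309 and 287 CPM against 111 and 56.7 CPM, with a log2 fold change of -1.74 ± 0.48 (edgeR adjusted p = 0.368) and no overlap of the groups. Of 8 tested genes of the JNK pathway and wound response, which induces upd genes in damaged discs, 0 passed, with 2 positive, 6 negative and a median of -0.21. The JNK target gene puc was at -1.30 ± 1.12, the kinase genes hep and bsk at 1.43 ± 0.80 and -0.77 ± 0.80, and the TNF ligand gene egr at -3.49 ± 3.34. The most abundant genes of the list were kay, a subunit gene of AP-1, at -0.06 ± 0.50 and grnd, the TNF receptor gene, at -0.24 ± 0.52. The relaxin-like gene Ilp8, which delays pupation when discs grow abnormally, was chosen after its values were seen. It had 0 counts in both wild-type libraries and 41 and 11 in wtsP2 (11.6 and 2.86 CPM). Pooled, this was 6.6 times a floor of 3 counts over the wild-type group, a floor that covers counting error only. The level of the second wtsP2 library lies below the 5.29 CPM that 0 counts allow in the second wild-type library. In all, 725 features had no count in wild type and counts in both wtsP2 libraries.

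**Figure D5:**
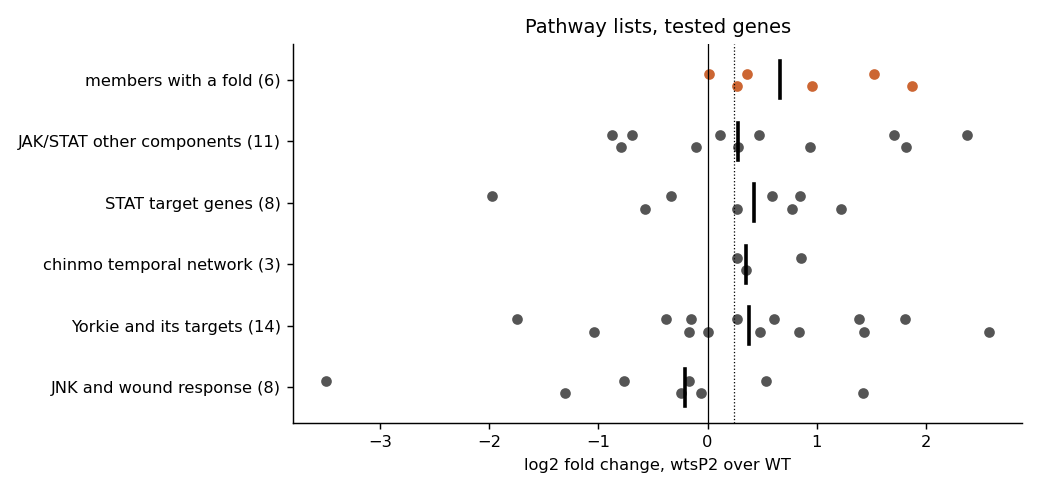
Log2 fold change (wtsP2 over wild type) of each tested gene by list; thick bars are list medians, the dotted line is the median of all tested genes, 0.24, and numbers in brackets are genes drawn. The medians lie between -0.21 for the JNK list and 0.66 for the 6 members with a fold.

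Profiles over the 4 libraries were set beside those of all tested genes by Euclidean distance in centred log2 CPM, as a description. Nearest to chinmo were the epithelial transcription factor gene grh (291, 111, 1586 and 1188 counts; distance 0.13), gem (128, 57, 843 and 621 counts; 0.13) and CG17162 (0.22), where the median distance of all genes was 2.59. Nearest to dome were NELF-B, CG9932 and HDAC6 at 0.13 to 0.19. Nearest to Stat92E were Edem1 and Ent2, both at 0.07, and CG9727 at 0.11. For Socs36E, Noc2, Papss and CG31729 lay at 0.08, and for Ptp61F, Sam-S, Cals and Rb97D at 0.02 to 0.10. With 4 libraries and so many genes, a close profile is no evidence of a link.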

How the data were processed

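Samples were grouped by their titles. RNA was prepared for sequencing by the SOLiD Total RNA kit, per the labels. HTSeq, DESeq and the builds BDGP5 and dm3 are named in the submitters' processing notes; the aligner, the strandedness and the program that wrote each library's table are not given in the sources. The authors deposited, per library, read counts of 15222 features, RPKM values (per the file headers), and the number of exons with over 10 reads. The authors' table of the series holds, per the file headers, group means of normalized signal and their ratio (fold). These means split into whole reads of 2 libraries for 99.9% (WT) and 99.3% (wtsP2) of nonzero values, at a relative tolerance of 2e-09.

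Symbols came from the reference annotation by gene ID (14346 features) or transcript ID (419); 457 features had none. Tests on these counts used edgeR 4.0.16 under R 4.3.3 (filterByExpr, 7278 genes kept, TMM, robust quasi-likelihood F test, Benjamini-Hochberg over all tested genes, threshold 0.05). The SE divides the log2 fold change by the root of the F statistic. CPM uses the full library total. limma 3.58.1 and DESeq2 1.42.0 served as alternatives, with other scalings, filters, thinning, the replicate number as a block and each library left out. The recovered reads were added as an alternative after seeing the data. The procedure was tested on simulated data. Named were all members, wts, overlapping features, up to 4 list genes with the smallest p, the 2 highest, and the 3 nearest profiles; et, Ilp8, the Turandot genes, Socs16D, Eip93F and the microRNA genes were chosen after their values were seen. Members and lists were chosen with earlier results of these data known. In the lists, let-7-C, mamo, ban, vas, nos, roX1, roX2 and Sxl were not analysed here. No sequences were used.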

Additional observations from a re-analysis of the deposited data

How the results depend on the processing

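Under 15 alternatives, the values of the 7 tested members stayed on the same side of the threshold and in the same direction in 93 of 104 cases, passed the threshold in 4 and turned sign in 7. Of these cases, 14 were of upd1, whose direction was set in advance by its 0 counts in wild type. No gene passed in the main test, so the same side of the threshold meant not passing. The sign turned for Stat92E under DESeq2 size factors (-0.067), upper quartile (-0.075) and library size alone (-0.12), and in DESeq2 (-0.065). With 1 library left out, Stat92E ranged from -0.29 to 0.44, negative lacking either the first wild-type or the second wtsP2 library. The sign also turned for Socs36E with 1 library left out (range -0.15 to 0.64, negative lacking the second wtsP2 library). Over all genes the median log2 fold change came to 0.17, 0.16 and 0.16 under those scalings, 0.77 in limma-voom and 1.33 without the first wild-type library. Members called were 0 in the other alternatives and 0 to 3 with 1 library left out: hop, upd3 and chinmo without the first wild-type library, dome and chinmo without the second. Of these, hop then had no wild-type count, and upd3 (log2 fold change -5.00, adjusted p = 0.000292) was compared with the 1 library where it was high. The cause was not tested. The fits without the first or the second wild-type library called a large share of all tested genes, as given above for chinmo. Calls in these fits do not by themselves set the members apart from other genes. Genes called in all were 0 in 7 alternatives, 37 without a filter, 182 in DESeq2, 150 in limma-voom, 107 with the replicate block and 18 to 3195 with 1 library left out. The labels do not say whether equal replicate numbers pair libraries. Deviations of same-numbered libraries correlated at r = 0.00801, a single value with 2 libraries a group. The block called none of the members. Depth limits what can be said of upd1. Thinned to 696952 counts per library, upd1 had 6 and 9 counts in wtsP2, and it was no longer tested.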
